A study of Mus musculus with 6 samples.

Results

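The poly(ADP-ribose) polymerase (PARP) genes examined here were the 10 rows of the deposited table whose symbol was Parp1, Parp2, Parp3, Parp4, Parp8, Parp9, Parp10, Parp11, Parp12 or Parp14, out of 36870 distinct symbols, and all 10 were expressed highly enough to be tested. RNA-seq of total RNA had been performed on BMMSCs, the adherent cells grown out of the marrow of femurs and tibias of C57BL/6 mice, with 3 Control libraries and 3 libraries of cells given siRNAs against Tet1 and Tet2 together (siTet1/Tet2). The labels and the siRNA methods give the Control as a non-targeting siRNA and the sequencing methods call it vehicle, the labels give passage 2 and the methods passage 1, and neither the age of the donor mice nor whether the libraries of a group came from separate mice was stated, so p-values measure the spread between these libraries only. The question was how the interferon-inducible PARPs compared with the DNA-repair PARPs after knockdown.

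PARP family enzymes move ADP-ribose from NAD+ onto proteins and nucleic acids. Parp1, Parp2 and Parp3 encode nuclear enzymes that are switched on by DNA breaks and help to recruit repair factors. Parp9, Parp10, Parp11, Parp12 and Parp14 are transcribed in response to interferon in many cell types, and their products add single ADP-ribose units or, for Parp9, act with the ubiquitin ligase Dtx3l. Parp4, which encodes the PARP of the vault particle, and Parp8, whose product is poorly characterised, were placed in neither class.

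Levels are given in RPKM, reads scaled to gene length and to library size. The targeted gene Tet2 was at 2.57, 4.08 and 3.71 RPKM before and 0.358, 0.238 and 0.202 RPKM after knockdown. Tet1 was at 0.032 to 0.098 RPKM against 0.001 to 0.01 RPKM, where 0.001 RPKM is the lowest value listed for any gene. It averaged below the 0.1 RPKM needed for testing and was not tested, so its decrease lies near the floor. The libraries held an estimated 32400000 to 38600000 reads, and the member with the least signal, Parp8, rested on about 291 reads or more in each library. The labelled cell type was only partly borne out by its markers. Of 18 stromal markers, Thy1, Lepr and Lum did not reach a mean of 0.1 RPKM. The summed level fell from between 1706 and 2260 RPKM in the Control libraries to between 294.7 and 526.9 RPKM in the siTet1/Tet2 libraries. Of 15 tested stromal markers, 12 were lower and 1 higher at an adjusted p under 0.05 from limma, beside 29.8% and 14.7% of all genes. All 18 macrophage markers were detected, among them Ptprc, the CD45 gene, at a mean of 52.6 RPKM in the Control and 53.0 RPKM in the siTet1/Tet2 libraries. Their summed level went from between 9307 and 12250 RPKM to between 17840 and 20920 RPKM. By the same test 8 of these markers were higher and 3 lower, beside 14.7% and 29.8% of all genes. Lyz2, the lysozyme gene of myeloid cells, went from a mean of 4439 RPKM to 11320 RPKM. Without Lyz2, which was no longer called under quantile normalization (0.056 on the log2 scale, adjusted p = 0.455 from limma), the other 17 summed to between 5760 and 7232 RPKM and to between 7994 and 8424 RPKM. Of 9 lymphoid markers, Cd4, which some myeloid cells also express, was at 2.39 to 2.67 RPKM against 7.56 to 8.69 RPKM, and the other 8 were at 0.06 RPKM or below in every library. By flow cytometry, the paper found BMMSCs of control and Tet knockout mice negative for CD45, in cells other than those sequenced here. Whether the sequenced cultures were mixed was not tested. In RNA from whole cultures, fewer cells of a type and less RNA per cell cannot be told apart.

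All 5 interferon-inducible PARPs fell in siTet1/Tet2 BMMSCs, from 2.26-fold for Parp10 to 3.95-fold for Parp14 as the ratio of the group means. Of the 3 DNA-repair PARPs, Parp1 and Parp2 did not pass the test, whereas Parp3 fell 2.26-fold. Parp8 fell as well, and Parp4 did not pass the test. Altogether 7 of the 10 members were lower and 0 were higher at an adjusted p under 0.05 (limma, Benjamini-Hochberg adjustment over all genes tested), beside 29.8% lower, 14.7% higher and thus 44.5% called over the 13266 genes tested. In 8 members, all but Parp2 and Parp4, every siTet1/Tet2 library was below every Control library, which was so for 35.9% of all genes (the reverse held for 0 members and 19.8% of all genes). With a fold change over 2 on the log2(RPKM + 1) scale and an unadjusted p under 0.05 from limma, 6 members were lower and 0 higher. Beside this, 5.63% were lower, 0.95% higher and 6.58% in either direction over all genes. These thresholds are those of the paper and are called the rule of the paper below. The scale and the test are not taken from the paper. The median log2 fold change was -1.36 over the interferon-inducible members, -0.06 over the DNA-repair members and -0.09 over all genes tested.

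**Figure D1:**
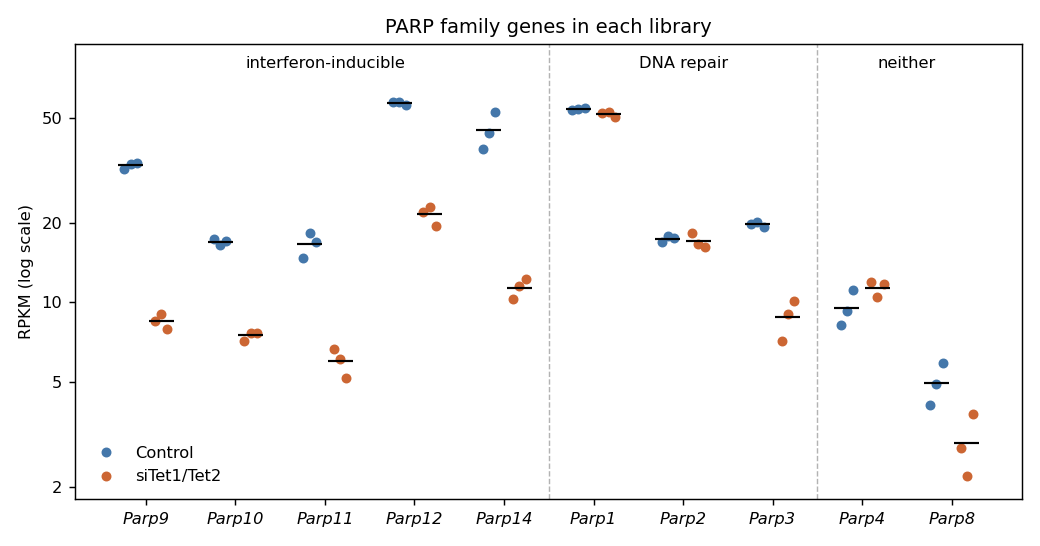
Each point is the RPKM of a gene in a library, on a log axis, with 3 Control (blue) and 3 siTet1/Tet2 (orange) libraries per gene and a line at each group mean. The 5 interferon-inducible genes and Parp3 have no overlap between the groups and lie at less than 0.5 of the Control mean after knockdown. Parp1 and Parp8 have no overlap either, and Parp1 and Parp2 stay near their Control level. Over all genes, 35.9% were lower without overlap.

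Parp9, which lies on chromosome 16 of GRCm38 from 35938470 to 35972605, measured 31.9, 33.4 and 33.6 RPKM in Control cells and 8.49, 9.02 and 7.92 RPKM in siTet1/Tet2 cells. The groups were far apart and each was tight. It fell by 1.84 on the log2 scale (SE 0.07, adjusted p = 1.07e-06 from limma). Parp14, whose product carries macrodomains that bind ADP-ribose, lies on the same chromosome from 35832874 to 35871544 and was at 38.1, 43.8 and 52.7 RPKM against 10.3, 11.6 and 12.3 RPKM. Its Control libraries were the most spread of the interferon-inducible class, with a coefficient of variation of 16.4%, and still every Control library was above every siTet1/Tet2 library. Its log2 fold change of -1.88 (SE 0.12, adjusted p = 1.38e-05 from limma) ranked 200 among the decreases of all genes tested, and that of Parp9 ranked 211.

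Parp12, whose product has zinc fingers of the kind that bind RNA, was the most abundant member in the Control libraries at 57.1, 57.3 and 56.0 RPKM, and measured 22.0, 22.9 and 19.5 RPKM after knockdown. The Control libraries differed by little from each other, and the groups did not overlap. The log2 fold change was -1.36 (95% interval -1.53 to -1.20, adjusted p = 5.46e-06 from limma). Parp11, a mono-ADP-ribosyltransferase with a WWE domain, was at 14.7, 18.3 and 16.9 RPKM against 6.64, 6.11 and 5.16 RPKM, a log2 fold change of -1.34 (95% interval -1.59 to -1.08, adjusted p = 4.80e-05 from limma). Parp10, another mono-ADP-ribosyltransferase, was at 17.3, 16.5 and 17.0 RPKM against 7.14, 7.65 and 7.68 RPKM. Its decrease was the smallest of the class, with a log2 fold change of -1.08 (95% interval -1.24 to -0.92, adjusted p = 1.50e-05 from limma), and its interval did not reach those of Parp9 and Parp14.

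Among the DNA-repair PARPs, Parp1, the main sensor of single-strand breaks, measured 53.6, 53.9 and 54.3 RPKM in Control cells and 52.2, 52.5 and 50.3 RPKM in siTet1/Tet2 cells. Every siTet1/Tet2 library was below every Control library, but by little. The log2 fold change was -0.06 with a 95% interval from -0.18 to 0.06 (adjusted p = 0.376 from limma), and the sign turned after median ratio scaling and quantile normalization, with 0.04 and 0.02. Parp2, which acts beside Parp1, was at 17.0, 17.8 and 17.5 RPKM against 18.2, 16.6 and 16.2 RPKM, and the groups overlapped. Its log2 fold change was -0.03 with an interval from -0.19 to 0.12 (adjusted p = 0.711 from limma), and it too turned positive under these scalings, with 0.06 and 0.10. The intervals of Parp1 and Parp2 did not extend to the change of any interferon-inducible member.

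Parp3, which acts in the repair of double-strand breaks, went apart from the other members of its class. It measured 19.8, 20.2 and 19.3 RPKM in Control cells and 7.13, 9.04 and 10.1 RPKM in siTet1/Tet2 cells, so that the groups did not overlap. The log2 fold change was -1.10 (95% interval -1.36 to -0.84, adjusted p = 0.000132 from limma), which lay beside that of Parp10. The spread was larger after knockdown, with a coefficient of variation of 17.2% against 2.17% in the Control libraries. Relative to Parp1 in the same library, the log2 ratio of Parp3 was -1.43, -1.42 and -1.49 in the Control libraries and -2.87, -2.54 and -2.31 after knockdown. In an exact two-sided permutation test this gave p = 0.1, the smallest that 3 libraries against 3 can give (0.129 after Benjamini-Hochberg adjustment over 9 members set against Parp1).

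**Figure D2:**
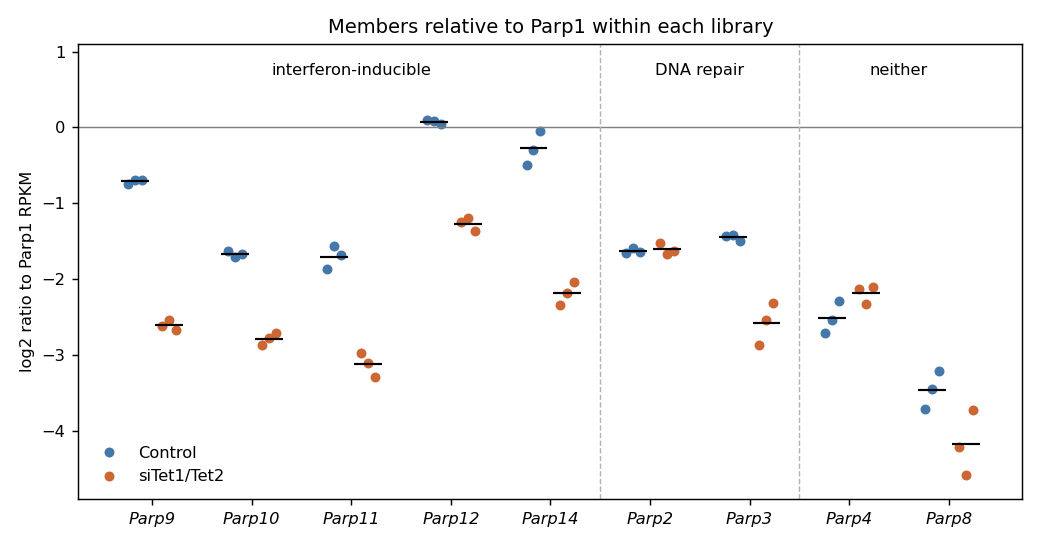
Each point is the log2 ratio of a gene's RPKM to the RPKM of Parp1 in the same library, a quantity that does not depend on library scaling, with Control in blue, siTet1/Tet2 in orange and a line at each group mean. The 5 interferon-inducible genes, Parp3 and Parp8 sit lower in all siTet1/Tet2 libraries, and Parp2 is level at means of -1.63 and -1.60. The share of all genes that sit lower in this way was not computed.

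The same ratio was formed for the other members. It fell by 1.91 on the log2 scale for Parp14, by 1.90 for Parp9, by 1.42 for Parp11, by 1.34 for Parp12 and by 1.12 for Parp10, with no overlap of the groups and p = 0.1 from the exact permutation test in each. The share of all genes whose ratio to Parp1 has no overlap was not computed. By RPKM itself, 35.9% of all genes were lower without overlap and 19.8% higher, so a lack of overlap is common here. For Parp2 the difference was 0.03 (p = 0.8 from the exact permutation test, 0.8 after adjustment). A ratio within a library shows that the pair of genes changed unequally and not that either was constant. As a further description, the mean log2(RPKM + 1) of the interferon-inducible members minus that of the DNA-repair members was 0.10, 0.17 and 0.23 in the Control libraries and -0.90, -0.90 and -1.02 in the siTet1/Tet2 libraries. The mean went from 0.16 ± 0.06 (SD, n = 3) to -0.94 ± 0.07 (SD, n = 3), with Parp3 counted on the repair side.

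Of the members in neither class, Parp8 fell and Parp4 did not pass the test. Parp4 measured 8.17, 9.22 and 11.1 RPKM in Control cells and 11.9, 10.4 and 11.7 RPKM after knockdown, with overlapping groups. Its log2 fold change was 0.24 (95% interval -0.01 to 0.50, adjusted p = 0.11 from limma), and it passed the test without Control replicate 3 (0.35, adjusted p = 0.0157 from limma), after median ratio scaling (0.33, adjusted p = 0.0383) and after quantile normalization (0.39, adjusted p = 0.0178). Parp8 was the least abundant member, with 4.09, 4.91 and 5.87 RPKM in the Control libraries and 2.81, 2.19 and 3.79 RPKM in the siTet1/Tet2 libraries. Its log2 fold change was -0.61 (95% interval -0.99 to -0.23, adjusted p = 0.0178 from limma). The call was lost in 3 of 6 fits with a library left out, with an adjusted p from limma of 0.0532 without Control replicate 2, 0.0539 without siTet1/Tet2 replicate 1 and 0.0648 without siTet1/Tet2 replicate 2. In the other fits of this kind it was 0.00560 to 0.0434.

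RPKM is scaled by length, so that genes can be set in an approximate order. The annotation that gave the lengths is not known, and some members share exonic bases with other genes. In the Control libraries the order was Parp12, Parp1, Parp14, Parp9, Parp3, Parp2, Parp10, Parp11, Parp4 and Parp8, with overlapping ranges between Parp2 and Parp10 and between Parp10 and Parp11. After knockdown Parp1 came first at 51.7 ± 1.21 RPKM (SD, n = 3), followed by Parp12 at 21.5 ± 1.78 RPKM and Parp2 at 17.0 ± 1.07 RPKM. Parp14 then stood level with Parp4, with means of 11.4 RPKM in both, and Parp3 with Parp9, with overlapping ranges in each pair. The interferon-inducible class made up between 60.8% and 62.0% of the summed RPKM of the 10 members in the Control libraries and between 36.3% and 38.7% in the siTet1/Tet2 libraries. The sum over all members was 261.8, 275.3 and 284.4 RPKM before and 146.9, 148.0 and 144.7 RPKM after.

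Promoters of 300 bases, from 250 bases before to 50 after an annotated start, were taken from RefSeq on GRCm38.p6 for Parp1, Parp2, Parp3, Parp4, Parp8, Parp11 and Parp12. Entries for Parp9, Parp10 and Parp14 were missing. The core of the interferon-stimulated response element, which Irf proteins bind, was searched as GAAA NN GAAA (N being any base) on both strands and was found in 3.44% of 32851 promoters. The sequences below are shown because they contrast an interferon-inducible gene with a match, a gene outside that class with a match, an interferon-inducible gene without one in this window, and a repair gene that did not pass the test. Capitals mark the matches to GAAA NN GAAA or its reverse complement.
Parp11, chr6:127446590-127446889, plus strand: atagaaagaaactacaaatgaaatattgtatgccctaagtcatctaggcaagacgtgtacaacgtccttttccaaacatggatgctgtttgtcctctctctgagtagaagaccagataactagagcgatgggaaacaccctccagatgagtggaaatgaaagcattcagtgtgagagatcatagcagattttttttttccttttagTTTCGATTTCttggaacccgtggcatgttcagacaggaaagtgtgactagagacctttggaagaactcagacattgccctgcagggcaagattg
Parp4, chr14:56575369-56575668, plus strand: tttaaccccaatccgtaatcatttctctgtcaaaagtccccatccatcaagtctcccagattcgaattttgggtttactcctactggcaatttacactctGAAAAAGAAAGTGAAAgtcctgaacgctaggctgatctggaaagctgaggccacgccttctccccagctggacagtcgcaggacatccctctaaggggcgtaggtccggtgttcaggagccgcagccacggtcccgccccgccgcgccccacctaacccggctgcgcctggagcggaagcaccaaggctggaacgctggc
Parp12, chr6:39118300-39118599, minus strand: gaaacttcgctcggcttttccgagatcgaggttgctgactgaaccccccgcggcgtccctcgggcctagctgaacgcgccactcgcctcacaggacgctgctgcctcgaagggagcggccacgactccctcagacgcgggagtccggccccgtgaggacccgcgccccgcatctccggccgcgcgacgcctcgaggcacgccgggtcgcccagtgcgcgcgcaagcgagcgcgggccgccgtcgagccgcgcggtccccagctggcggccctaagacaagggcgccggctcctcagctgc
Parp1, chr1:180568641-180568940, plus strand: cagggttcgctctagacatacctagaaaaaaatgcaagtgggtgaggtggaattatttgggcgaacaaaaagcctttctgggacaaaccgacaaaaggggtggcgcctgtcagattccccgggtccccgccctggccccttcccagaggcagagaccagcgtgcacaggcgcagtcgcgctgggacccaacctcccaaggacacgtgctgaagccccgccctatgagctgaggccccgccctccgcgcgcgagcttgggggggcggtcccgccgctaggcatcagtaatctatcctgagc

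In Parp11 the match began at position -44 from the start, on the reverse strand, and a TTCNNNGAA match, the form of a gamma-activated site and present in 8.3% of promoters, overlapped it at position -37. A second annotated start of Parp11, at chr6:127453377-127453676, held neither. In Parp4, which did not pass the test, a pair of overlapping GAAA NN GAAA matches began at positions -150 and -144. No match was found in the windows of Parp1, Parp2, Parp3, Parp8 and Parp12, which says only that these letters were not in these windows. The study concerned DNA demethylation, and CpG dinucleotides in the windows numbered 46 for Parp12, 37 for Parp8, 25 for Parp2, 20 for Parp1, 17 for Parp4 and 16 for Parp3, against a median of 7 over all promoters. The window of Parp11 with the match held 5 and its other window 25. The windows of Parp3, Parp8, Parp11 and Parp12, which fell, held 5 to 46 CpG dinucleotides. Those of Parp1, Parp2 and Parp4, which did not pass the test, held 17 to 25. Methylation was not measured in these data, and a link between the number of CpG dinucleotides and the changes was not tested.

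Parp9 and Parp14 lie 66926 bases apart on chromosome 16, with Dtx3l between them on the opposite strand to Parp9. The annotated start of Dtx3l, at 35939151, is 681 bases inside Parp9, so that 458 exonic bases are shared, and how reads there were assigned is not known. Dtx3l measured 23.8, 24.7 and 25.3 RPKM in Control cells and 8.73, 8.57 and 8.59 RPKM after knockdown, a log2 fold change of -1.41 (adjusted p = 2.51e-06 from limma). Of the 6 other protein-coding genes of the table within 100 kb of Parp9 or Parp14, 2 were lower and 1 was higher. This is near the 29.8% lower and 14.7% higher over all genes. Fam162a and Ccdc58 were lower, with log2 fold changes of -0.48 and -0.55, and Dirc2 was higher with 0.48. Kpna1, Wdr5b and Hspbap1 did not pass the test. Ccdc58 lost its call without the filter on low values (adjusted p = 0.0561 from limma), and Wdr5b passed as higher after quantile normalization (0.37, adjusted p = 0.0236). The nearest of them to Parp14, Hspbap1, 4397 bases away, was at -0.12 and the nearest to Parp9, Kpna1, 6145 bases away, at -0.05.

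**Figure D3:**
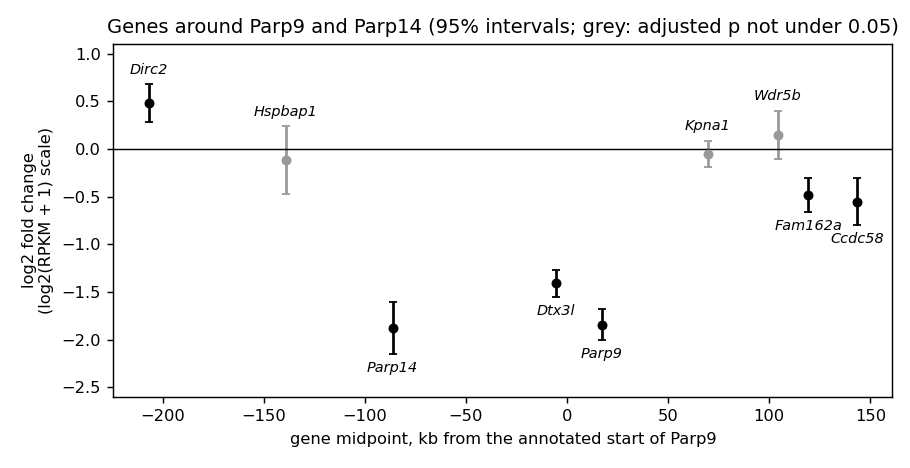
Log2 fold change of each protein-coding gene of the table near Parp9 and Parp14 against the distance of its midpoint from the annotated start of Parp9, with 95% intervals from limma, black where the adjusted p was under 0.05 and grey otherwise. Parp14, Dtx3l and Parp9 lie between -1.41 and -1.88, and the 6 other genes lie between -0.55 and 0.48.

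The rest of the ADP-ribosylation genes were described from lists of other family genes, partners and erasers, break repair and NAD supply. Of 33 such genes tested, 8 were lower and 5 were higher at an adjusted p under 0.05 from limma, beside 29.8% and 14.7% of all genes, with a median log2 fold change of -0.05. In the 6 other family genes, 2 were lower and 0 were higher. Zc3hav1, which encodes the antiviral zinc-finger PARP that lacks enzyme activity, was at 45.6, 47.4 and 54.2 RPKM against 33.7, 33.2 and 32.2 RPKM, a log2 fold change of -0.55 (adjusted p = 0.000523 from limma). Tiparp, a target of the aryl hydrocarbon receptor, fell from 8.96 ± 0.444 RPKM to 6.22 ± 0.746 RPKM (SD, n = 3), a log2 fold change of -0.47 (adjusted p = 0.00482 from limma). These decreases were smaller than those of the 5 members placed in the interferon-inducible class. Classes were given only to the members, so Zc3hav1 and Tiparp were not sorted by their response to interferon. The larger decreases are therefore those of the class as listed, and not of every family gene that may respond to interferon. The tankyrase genes Tnks and Tnks2, Parp6 and Parp16 did not pass the test, with log2 fold changes of 0.07, 0.15, -0.08 and 0.33. Parp16, an enzyme of the endoplasmic reticulum, passed with the replicate block (adjusted p = 0.0402 from limma), without Control replicate 2 (adjusted p = 0.0386) and after quantile normalization, and Tnks2 after quantile normalization and median ratio scaling.

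Among the 10 partners and erasers, 2 were lower and 1 was higher, no more than the 29.8% and 14.7% of all genes. Besides Dtx3l, Hpf1, the cofactor that directs Parp1 and Parp2 to serine residues, was lower, from 42.2 ± 1.75 RPKM to 33.3 ± 0.787 RPKM (SD, n = 3), a log2 fold change of -0.33 (adjusted p = 0.00224 from limma). Macrod1, which removes single ADP-ribose units, rose from 6.36, 4.85 and 4.45 RPKM to 11.3, 11.4 and 12.1 RPKM, a log2 fold change of 1.03 (adjusted p = 0.000222 from limma). Parg, the main enzyme that degrades poly(ADP-ribose), was at 9.83 ± 0.809 RPKM against 8.90 ± 0.720 RPKM (SD, n = 3) and did not pass the test (adjusted p = 0.277 from limma).

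**Figure D4:**
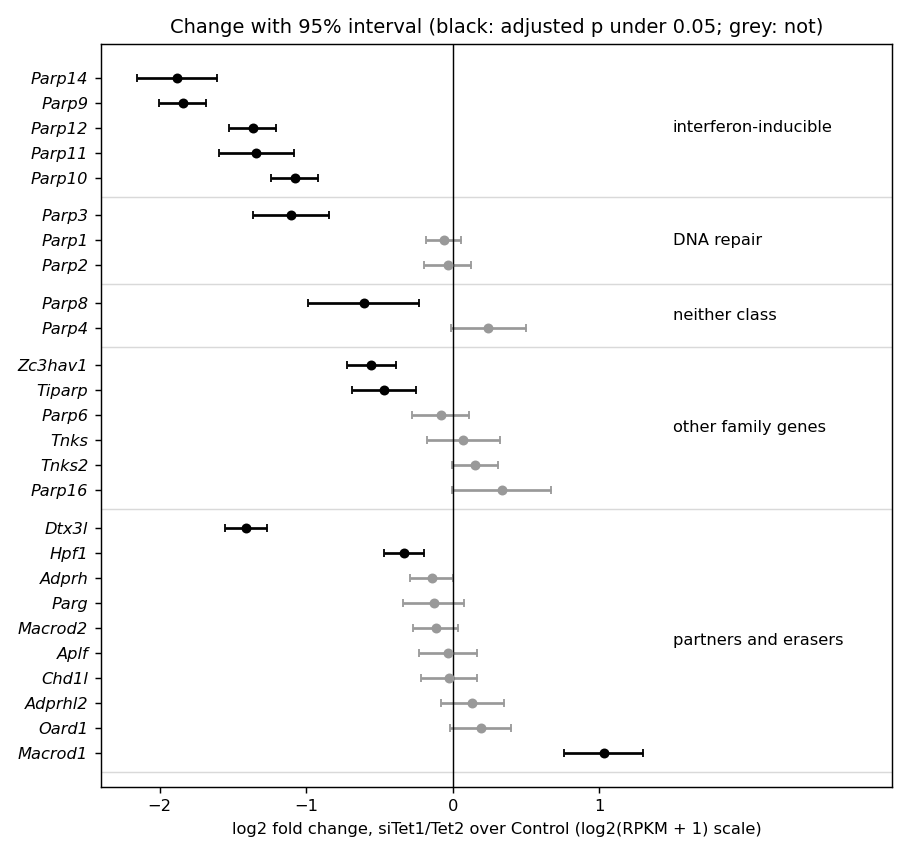
Log2 fold change of siTet1/Tet2 over Control on the log2(RPKM + 1) scale with 95% intervals from limma, for the 10 members by class, the 6 other family genes and the 10 partners and erasers, black where the adjusted p was under 0.05. The 5 interferon-inducible members, Parp3 and Dtx3l stand below -1, and Macrod1 stands above 1.

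Of the 10 genes of single-strand break and base excision repair, 3 were lower and 1 was higher, near the 29.8% and 14.7% of all genes. Polb, the repair polymerase, fell from 28.8 ± 1.01 RPKM to 18.2 ± 1.74 RPKM, with a log2 fold change of -0.64 (adjusted p = 0.000373 from limma), and Fen1, the flap nuclease, fell by 0.31 on the log2 scale (adjusted p = 0.00881 from limma, 0.0626 without the filter on low values and 0.0506 after quantile normalization). Xrcc1, the scaffold that binds poly(ADP-ribose) made by Parp1, rose from 19.5, 19.0 and 17.1 RPKM to 24.3, 24.1 and 24.8 RPKM, a log2 fold change of 0.38 (adjusted p = 0.00245 from limma). Of 7 genes of NAD metabolism tested, 3 were higher and 1 was lower, beside 14.7% higher and 29.8% lower over all genes. Nmnat3 and Naprt, both of NAD synthesis, rose by log2 fold changes of 0.45 and 0.39. Naprt lost its call without Control replicate 2 (adjusted p = 0.0582 from limma), without siTet1/Tet2 replicate 1 (adjusted p = 0.0546) and without the filter on low values (adjusted p = 0.0693). Nnmt, which methylates nicotinamide, fell from 5.93 to 2.40 RPKM on average, a log2 fold change of -1.03 (adjusted p = 0.000295 from limma).

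The interferon-inducible PARPs were lower in the same libraries as the interferon-stimulated genes. A list of interferon-stimulated genes was compiled by hand with earlier results of these data known, so its count is a description. All 28 of its genes in the table were lower at an adjusted p under 0.05 from limma, beside 29.8% of all genes. Their median log2 fold change was -2.56, led by Ifit3 with -4.99 and Isg15 with -4.40. Of these, 21 had a larger decrease than Parp14 and than Parp9, and 27 had a larger decrease than Parp10, Parp11 and Parp12. In the signalling chain, Stat2 fell by 2.13 on the log2 scale, Irf9 by 1.14, Irf1 by 0.96 and Irf7 by 5.05, each with an adjusted p from limma of at most 4.81e-05. The receptor gene Ifnar1 rose by a log2 fold change of 0.37 (adjusted p = 0.00199 from limma), and Ifnar2, Ifngr1, Ifngr2, Jak1 and Tyk2 did not pass the test. Jak1 passed it as higher without Control replicate 3 (0.17, adjusted p = 0.0343 from limma), and Jak1 and Ifngr1 with median ratio scaling and quantile normalization, with Tyk2 added under the latter. The stromal and macrophage markers given above moved between the same groups, and their part in the decrease of the PARPs was not tested.

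The genes whose level across the 6 libraries was most like that of Parp14, by Pearson r of log2(RPKM + 1) among 11066 other genes that averaged 1 RPKM or more, were Fam102a, Robo1, Gm4070, Dclk1 and Eif2ak2, with r between 0.9991 and 0.9996. All 5 were lower after knockdown, which follows from their choice by likeness to Parp14, a gene that fell. Fam102a, the most alike, fell from 13.8 to 5.81 RPKM on average. Eif2ak2, the interferon-stimulated kinase that senses double-stranded RNA and the last of the 5, fell from 41.9 to 12.1 RPKM. The r of Parp14 with Parp10 was 0.988, with Parp9 0.988, with Parp12 0.977, with Parp3 0.974 and with Parp11 0.972. Most of this likeness is the step between the groups, which all of these genes share. For Parp1, Qrsl1, Spast, Ercc6l and Zw10 were among the most alike, with r between 0.976 and 0.990, and Parp1 varied by so little that these values rest on small differences between libraries.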

How the data were processed

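RNA-seq of 6 libraries was examined. After adaptor trimming, the authors aligned reads to GRCm38 and quantified genes in DNASTAR Lasergene v15.0. They deposited RPKM values, not log-transformed, in 1 table, although their methods write FPKM. Which annotation was used, whether strand was used and how multiply matching reads were counted is not given in the sources used here. A further column, the authors' p-value from their own group comparison, was not used.

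For 37 symbols in more than 1 row, the row of highest mean stood for the gene. The 13266 genes averaging 0.1 RPKM or more were tested two-sided on log2(RPKM + 1) with limma 3.58.1 in R 4.3.3 (lmFit, eBayes with trend), with Benjamini-Hochberg adjustment over all of them, and the script was tested on simulated data. Fold changes on this scale understate those of low genes. With 3 libraries a group, 0.1 is the smallest exact permutation p. The number of reads was estimated from GENCODE M21 genes with 1 transcript, as the total at which low values came closest to whole reads. At that total, 43.5% to 58.0% were within 0.1 of a whole number. A total fixed beforehand would give 20% by chance. The best of many totals was taken, so 20% is not the chance level for it. The reads given for Parp8 assume its longest annotated transcript. As reads were only estimated, no count test was run.

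Members, classes and lists were chosen with earlier results of these data known. Named genes were all members, family genes and partners fixed by name, and up to 2 called genes in each direction per list, besides neighbours and genes of like pattern, and some genes that this rule names are not reported here. Parp2, Parp1 and other members were matched by symbol, and Hpf1 is listed in the table as 2700029M09Rik. Of 30 interferon-stimulated genes, 28 were in the table. Exons of Parp10 share 205 bases with Plec, of Parp4 335 with Gm16573 and of Parp3 20 with Rrp9. Replicates correlated with r of 0.992 to 0.997, and libraries of different groups with 0.949 to 0.969. Deviations from the group means of libraries with the same replicate number correlated with r of 0.149, 0.117 and 0.462, each above 0.1. Across numbers, Control 1 with siTet1/Tet2 2 gave 0.332 and Control 2 with siTet1/Tet2 1 gave 0.205. The remaining pairs lay between -0.378 and -0.242. For numbers 1 and 2, libraries of the same number were therefore not the most alike. An alternative fit took the numbers as pairs. The labels do not say what a number stands for. The other alternatives were pseudocounts, filters, library scalings, variance models, summed rows, the rule of the paper and each library left out. Promoter sequences are from RefSeq (GRCm38.p6), and Python 3.11.15 with pandas 2.3.3 was used.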

Additional observations from a re-analysis of the deposited data

How the results depend on the processing

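Parp9, Parp10, Parp11, Parp12, Parp14 and Parp3 stayed lower with an adjusted p from limma below 0.05 in each of 17 alternatives, with a highest adjusted p of 0.0127, for Parp3. The count of all members called was 7 and ranged from 6, without Parp8, to 8, with Parp4 as higher. The count of interferon-inducible members lower stayed at 5, that of DNA-repair members called at 1, and the difference between the class means at -1.17 to -1.06 around -1.10. Parp8 lost its call without the filter on low values (adjusted p = 0.188 from limma) and with gene-wise variance (adjusted p = 0.0963), besides the libraries named above. Signs turned for Parp1 (0.036 and 0.024) and Parp2 (0.059 and 0.10) with median ratio scaling and quantile normalization, for Parp6 (0.07) and Parg (0.033) with quantile normalization, and for Tnks without siTet1/Tet2 replicate 3 (-0.006, against up to 0.169 with another library left out). For the turned signs and the lost calls, the cause was not tested. The replicate block gave Parp16 an adjusted p of 0.0402 from limma, with the same log2 fold change of 0.33, and changed no other call of a member or family gene.

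Of the ADP-ribosylation genes other than members, 13 were called, and 3 with the fold change rule of the paper. The lower genes numbered 8, and 2 with that rule. The higher genes numbered 5, and 3 without the filter, 10 after quantile normalization, 1 with that rule and 3 to 6 with a library left out, the lowest without siTet1/Tet2 replicate 1. Over all genes, 5905 were called, 3952 lower and 1953 higher. The numbers were 3744, 2514 and 1230 without the filter and 873, 747 and 126 with the rule of the paper. Quantile normalization gave 2627 lower and 3607 higher, and median ratio scaling 3108 lower and 2697 higher. The share of lower genes among all called was 66.9%, and 53.5% with median ratio scaling, 42.1% with quantile normalization and 74.2% with libraries rescaled to 1 sum. Over all genes the median log2 fold change was -0.087, and 0.055 after quantile normalization, so small changes such as those of Parp1, Parp2 and Parp4 are relative to the scaling.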
